A study of Mus musculus with 8 samples.

Results

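The immediate early and heat shock genes described here are Fos, Fosb, Jun, Junb, Jund, Egr1, Atf3, Dusp1, Hspa1a and Hspa1b. They were chosen by symbol, as genes known to be raised by tissue dissociation and stress, and are 10 of the 24538 genes in the count files. All 10 were present in the count files and in the FPKM table, and all 10 were among the 15151 genes that passed the filter on low counts. RNA was sequenced from cells of the epidermis of Atoh1-GFP mice at postnatal day 0, a genotype that all 4 groups share. The groups were Merkel cells and IFE cells (a label that the submitters do not spell out) from the paw, and the same cell types from the back, with 2 libraries each and 8 libraries in all. Both cell types were sorted for EpCAM. Merkel cells, the touch receptors of the epidermis, carried GFP and lacked Sca1, whereas IFE cells carried Sca1 and lacked GFP. The labels give 1 and the same dissociation for every library, a collagenase digestion with shaking followed by trypsin, both at body temperature, and then a stain on ice. Nothing in the labels tells whether paired libraries came from separate animals or sorts, or whether animals were pooled, so the p-values cover library-to-library spread, which may be technical.

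Immediate early genes are transcribed within minutes of a signal, without new protein synthesis, because the factors that switch them on are already in the cell. Fos and Jun proteins pair to form the transcription factor AP-1, Egr1 and Atf3 encode further transcription factors, and Dusp1 encodes a phosphatase that switches off the MAP kinases that start the response. Hspa1a and Hspa1b encode the inducible chaperone Hsp70, which heat shock factor switches on when proteins unfold. In skin, warm enzymatic digestion is known to raise both sets, and such genes are often read as a record of handling.

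Total counts ranged from 11139306 to 26195076 per library, and 14002 to 15869 genes had a count. The summed level of 9 Merkel markers was 3539 to 5764 CPM (counts over the TMM-scaled library total, as defined in edgeR) in the 4 Merkel libraries and 9.88 to 19 CPM in the 4 IFE libraries, with none of the 9 at 0 in any Merkel library. The sum of 7 basal keratinocyte markers was 1073 to 3451 CPM in Merkel libraries and 24059.5 to 40931 CPM in IFE libraries. The immune and Langerhans list of 9 markers summed to 0.228 to 5.56 CPM in Merkel libraries, to 45.9 and 25.1 CPM in paw IFE cells, and to 1044 and 154 CPM in back IFE libraries 1 and 2. The expression of 28 Hox genes follows position along the body, and over them the library labelled back IFE 2 correlated at 0.753 and 0.883 with the paw IFE libraries and at -0.075 with back IFE library 1. Its site label therefore goes against its Hox genes. Most fold changes of named genes that rest on it are given with and without it. List medians, counts at an unadjusted p, DESeq2 calls and shares of all genes past the threshold are given only with it. Paw Merkel library 1 stood nearer to the IFE libraries on the first principal component (-55.2) than the other Merkel libraries (-172 to -141). In these bulk libraries fewer cells of a type and less RNA per cell cannot be told apart.

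The Hsp70 genes lie next to each other on chromosome 17 of the mouse genome (GRCm38, reverse strand): Hspa1a from 34969190 to 34972156 and Hspa1b from 34956436 to 34959238. Their upstream sequences are shown because of the 10 these genes differed most between libraries, together with that of Jun, the only other of the 9 genes with an entry in the RefSeq promoter table whose window holds the same motif. Each window is the 250 bases before the RefSeq start (GRCm38.p6), printed 5′ to 3′ on the strand of the gene, and capitals mark the heat shock element GAANNTTC, a palindrome that reads the same on both strands. The windows are chr17:34972157-34972406 for Hspa1a, chr17:34959239-34959488 for Hspa1b and chr4:95052223-95052472 for Jun, all on the reverse strand.
Hspa1a: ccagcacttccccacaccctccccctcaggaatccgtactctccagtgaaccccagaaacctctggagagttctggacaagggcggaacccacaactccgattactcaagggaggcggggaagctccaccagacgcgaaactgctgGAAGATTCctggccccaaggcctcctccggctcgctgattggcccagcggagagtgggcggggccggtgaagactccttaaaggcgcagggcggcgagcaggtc
Hspa1b: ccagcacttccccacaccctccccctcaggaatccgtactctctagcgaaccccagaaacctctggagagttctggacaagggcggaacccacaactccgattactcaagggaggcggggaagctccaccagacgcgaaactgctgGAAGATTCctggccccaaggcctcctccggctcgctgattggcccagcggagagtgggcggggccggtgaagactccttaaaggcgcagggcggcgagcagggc
Jun: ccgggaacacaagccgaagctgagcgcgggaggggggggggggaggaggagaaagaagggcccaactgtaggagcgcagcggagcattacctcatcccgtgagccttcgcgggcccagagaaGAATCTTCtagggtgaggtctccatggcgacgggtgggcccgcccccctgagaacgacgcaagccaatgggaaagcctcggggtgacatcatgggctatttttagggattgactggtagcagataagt

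The Hspa1a and Hspa1b windows differed at 3 of 250 bases, and both hold GAAGATTC beginning 104 bases before the start. The Jun window holds GAATCTTC beginning 128 bases before the start. Of 32851 RefSeq windows of this length, 6.69% hold GAANNTTC. TGACG, a core of the cyclic AMP response element, searched on both strands, stood in the windows of Fos (2 matches), Fosb (1), Junb (1), Atf3 (1) and Dusp1 (3), and 17.8% of all windows hold it. The AP-1 site TGANTCA, also a palindrome, was not found in the 9 windows and stands in 6.75% of all windows. Egr1 was not matched. These matches describe letters only.

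The Hsp70 genes set paw IFE library 2 apart from the other 7 libraries. Hspa1a measured 23.1 and 1.57 CPM in paw Merkel libraries 1 and 2, 26.5 and 734 CPM in paw IFE libraries 1 and 2, 3.35 and 27.5 CPM in back Merkel libraries 1 and 2, and 25 and 16 CPM in back IFE libraries 1 and 2. Hspa1b measured 27 and 11.6 CPM in paw Merkel, 50.5 and 816 CPM in paw IFE, 10.5 and 9.38 CPM in back Merkel and 38.6 and 50.1 CPM in back IFE libraries, in the same order. Paw IFE library 2 was the highest of all 8 for both genes, 26.7-fold above the next library for Hspa1a and 16.2-fold for Hspa1b, while the other 7 libraries lay within 1.57 to 27.5 CPM and 9.38 to 50.5 CPM.

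Within paw IFE cells, library 2 exceeded library 1 by 27.6-fold for Hspa1a and 16.1-fold for Hspa1b. Ranked by the size of the difference between the libraries of the group, these were the 73rd and the 231st of 15151 genes. The raw counts were 14872 in library 2 against 650 in library 1 for Hspa1a, and 16539 against 1240 for Hspa1b. The exact Poisson interval (95%) of Hspa1a was 722 to 746 CPM in library 2 and 24.5 to 28.6 CPM in library 1, which covers counting error only, since amplified reads are not independent molecules. The pair took 0.157% of all counts of paw IFE library 2 and 0.00116% to 0.00815% of the other libraries. On the length-scaled FPKM values of the authors' table, Hspa1a and Hspa1b had 495 and 519 FPKM in paw IFE library 2, the 38th and 36th highest genes of that library. In the other 7 libraries they had 1.42 to 23.1 FPKM and 7.42 to 32.4 FPKM.

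The split of reads between both Hsp70 genes is uncertain. Their coding sequences are 99.4% identical (8 bases differ and 3 stand opposite a gap), and 38.1% of 150-base windows of the Hspa1a transcript, the length of the reads, also occur in Hspa1b. The opposite share was 40.5%. Of the exonic bases of Hspa1a, 19% overlap the gene Gm20481, and the strand setting of the counting is not given in the sources used here. With counts of both genes summed, the number of these genes past the threshold was the same in every comparison below.

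**Figure D1:**
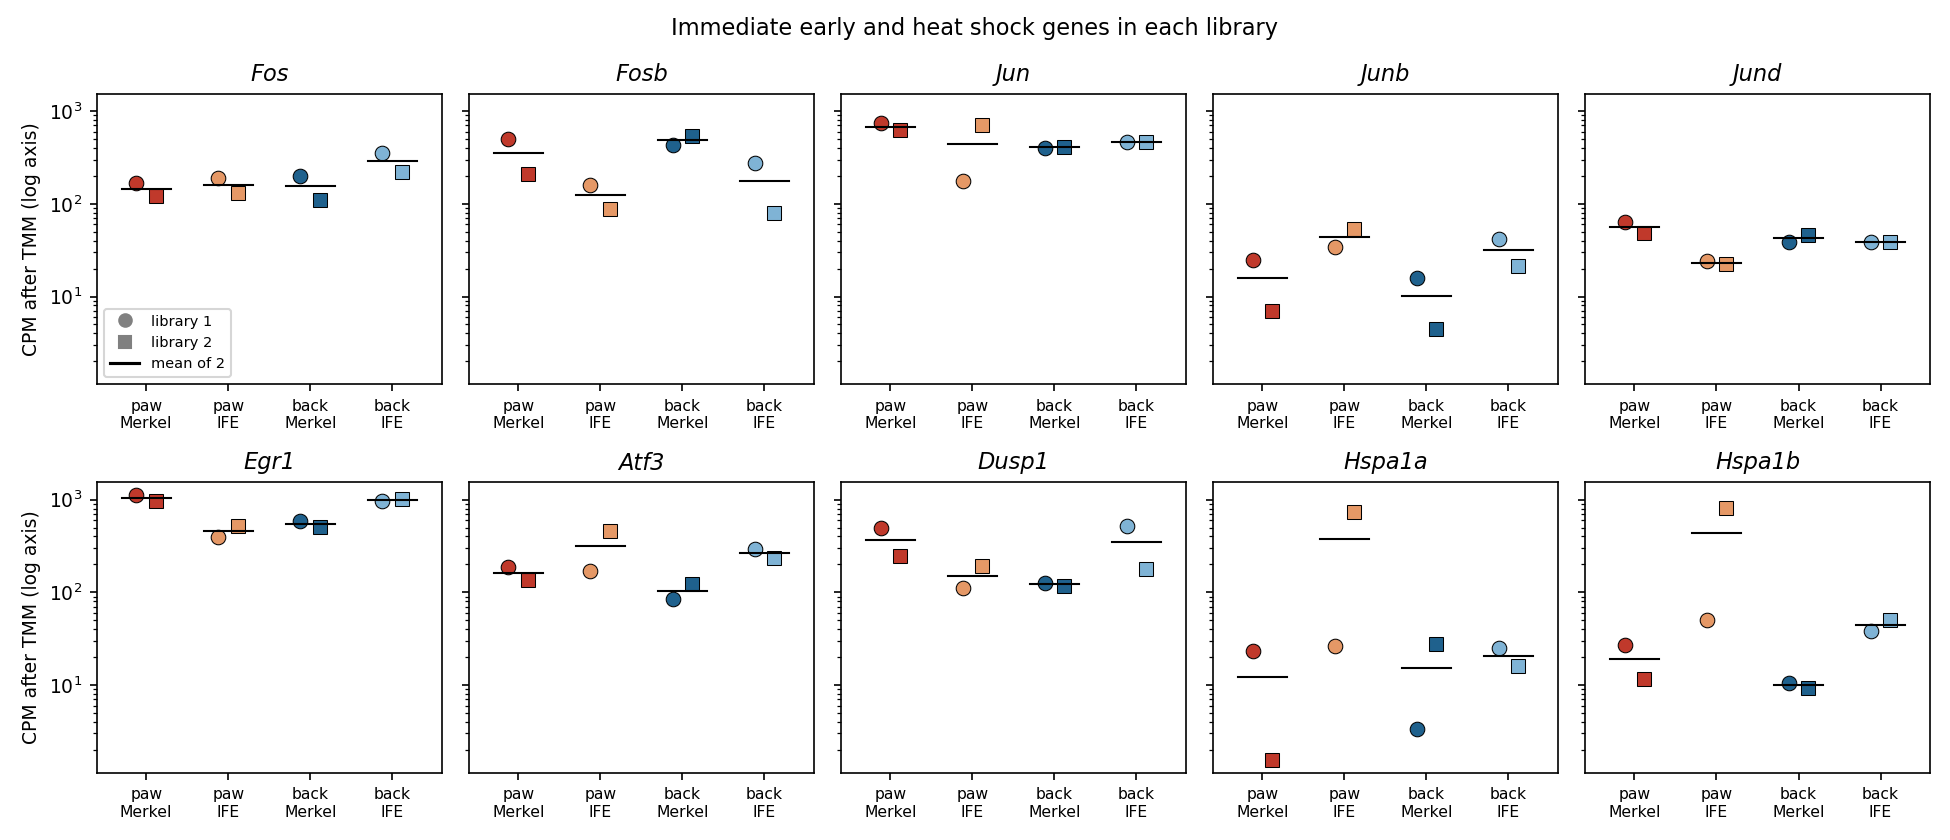
CPM of the 10 genes on a log axis in each of the 8 libraries, 1 panel per gene, with groups along the horizontal axis; circles are library 1, squares library 2 and bars the mean of 2. Hspa1a and Hspa1b stand at 734 and 816 CPM in paw IFE library 2, and at 1.57 to 50.5 CPM elsewhere.

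Jun and Atf3 were also higher in paw IFE library 2 than in library 1, and the Fos genes were not. Jun, the main partner in AP-1 (chromosome 4, 95049034 to 95052222), measured 740 and 622 CPM in paw Merkel libraries 1 and 2, 176 and 701 CPM in paw IFE libraries 1 and 2, 401 and 412 CPM in back Merkel and 460.3 and 462 CPM in back IFE libraries. Paw IFE library 1 was thus the low library for Jun, 3.98-fold below its partner, whereas the 2 libraries of each other group lay close together. Atf3, a stress-induced transcription factor (chromosome 1, 191170296 to 191218039), measured 189 and 136 CPM in paw Merkel, 170.1 and 464 CPM in paw IFE, 85.1 and 123 CPM in back Merkel and 292 and 237 CPM in back IFE libraries. Here paw IFE library 2 was the highest of all, 2.72-fold above library 1, which lay within the range of the paw Merkel libraries.

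Of the 10 genes, 4 were at least 2-fold higher in paw IFE library 2 than in library 1 (13.1% of all genes tested were), and 0 were at least 2-fold higher in library 1 (13.9% of all genes). Dusp1, Junb and Egr1 were 1.7-fold, 1.56-fold and 1.33-fold higher in library 2. Fosb and Fos were 1.81-fold and 1.48-fold higher in library 1, and Jund was 1.08-fold higher there. With 1 library on each side these differences have no replicate check.

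Other early response and chaperone genes pointed the same way within paw IFE cells. Of 34 other early response genes, 21 were at least 2-fold higher in library 2 and 0 in library 1, with a median log2 difference (library 2 minus library 1) of 1.48, against -0.02 over all genes tested. Of 26 other heat shock and chaperone genes, 11 were at least 2-fold higher in library 2 and 0 in library 1, with a median of 0.83. Paw IFE library 2 was the highest of all 8 libraries for 4 of the 10 genes, for 16 of the 34 early response genes and for 13 of the 26 chaperones, and it was the highest for 9.26% of all genes tested.

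The following genes of those lists were chosen after their values were seen. Hsp90aa1, an inducible cytosolic chaperone, had 1495 CPM in paw IFE library 2 against 221 CPM in library 1, and 176 to 338 CPM in the 6 libraries of the other groups. Hsph1, a partner of Hsp70, had 474 against 129 CPM, and Dnajb4, an Hsp70 cochaperone, 198 against 55.6 CPM. Klf6, a transcription factor of injury responses, had 1645 CPM in library 2 against 264 CPM in library 1. Cyr61, a secreted matrix protein and early target of serum response factor, had 545 against 35.2 CPM, and back IFE library 1 also stood high with 355 CPM. Nfkbia, the inhibitor of NF-kappaB, had 202 against 54.3 CPM. All of these were at their highest of the 8 libraries in paw IFE library 2.

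Shorter lists of regulators and related enzymes were counted in the same way. Of 18 kinases and transcription factors upstream of the immediate early genes that were tested, 1 was at least 2-fold higher in each paw IFE library, with a median log2 difference of -0.05. Of 13 genes of the unfolded protein response, 3 (23.1%) were at least 2-fold higher in library 2 and 0 in library 1, with a median of 0.57. Of 11 other dual specificity phosphatases, these counts were 3 (27.3%) and 0, with a median of 0.54. Of 7 other AP-1 genes they were 2 (28.6%) and 0, with a median of 0.13. Over all genes tested the shares were 13.1% for library 2 and 13.9% for library 1.

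The paw IFE libraries differed in further ways that were measured. Of the 7 markers of differentiated keratinocytes 6 are in the count files, and they summed to 10636 CPM in paw IFE library 2 and 6071 CPM in library 1, against 412 to 7677 CPM in the 6 libraries of the other groups. None of the 6 was at 0 in library 2, and Ivl was at 0 in library 1. Basal markers summed to 24059.5 CPM in library 2 and 27603 CPM in library 1, fibroblast markers to 439 and 544 CPM, and total counts were 20016954 and 23197142. The part of these differences in the levels of the stress genes was not tested.

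**Figure D2:**
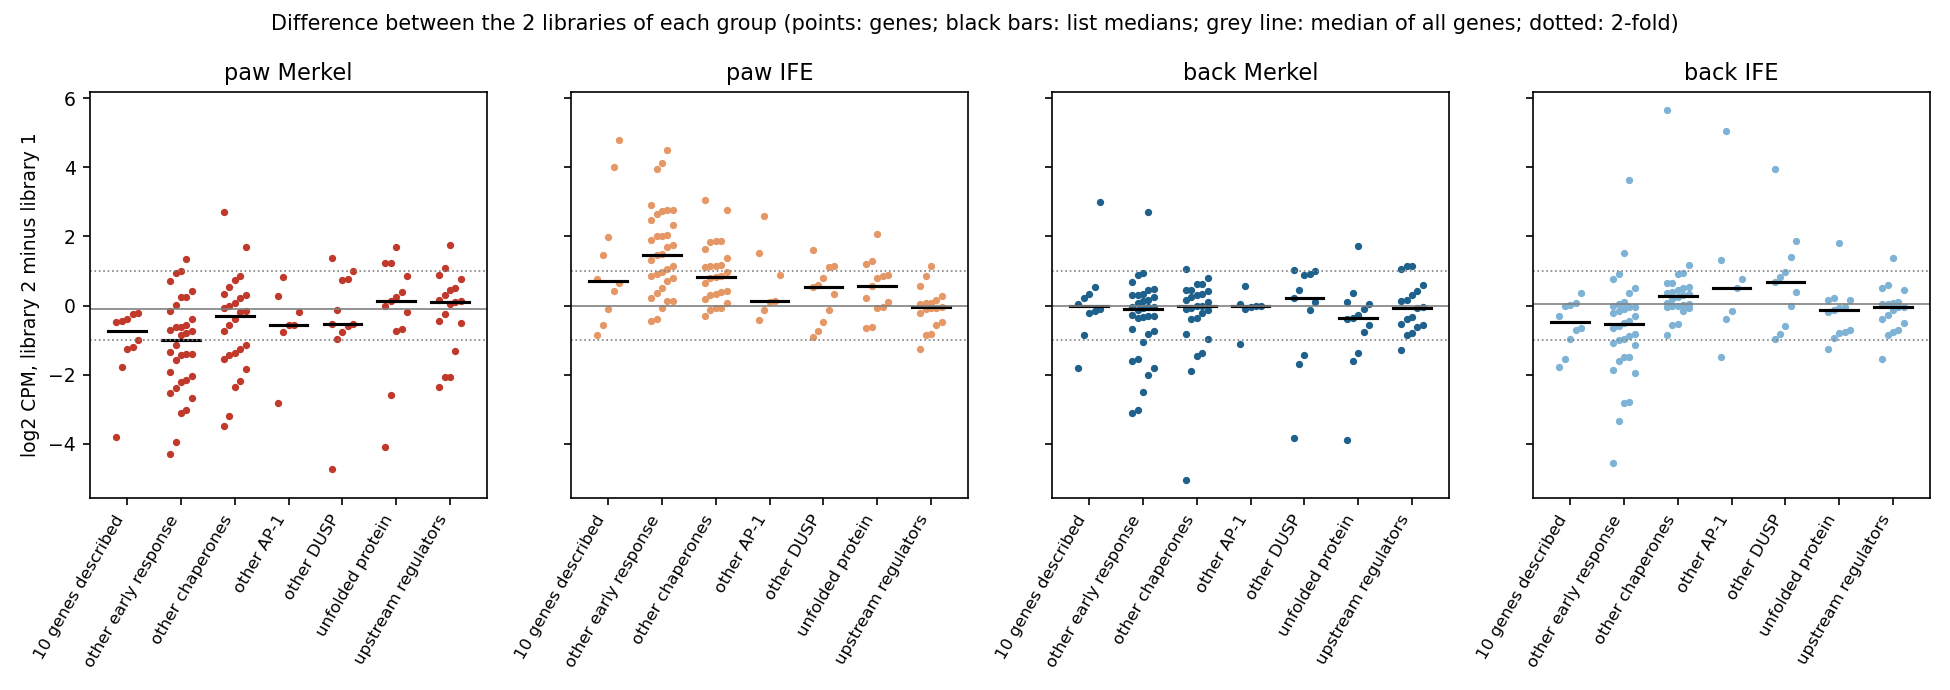
Difference in log2 CPM, library 2 minus library 1, for each gene of 7 lists in each of the 4 groups, with black bars at list medians, a grey line at the median of all genes tested and dotted lines at 2-fold. In paw IFE cells the early response list is centred near 1.48 and the chaperone list near 0.83, while the upstream regulators stay near 0.

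In the other groups the Hsp70 differences between libraries were smaller, and other genes of the 10 differed too. In paw Merkel cells 4 of the 10 genes were at least 2-fold higher in library 1 (31.1% of all genes), namely Fosb, Junb, Hspa1a and Hspa1b, and 0 in library 2 (19% of all genes). Hspa1a there rests on 17 counts in library 2, and its 13.8-fold difference is the largest of the 4. In back Merkel cells Junb was 3.49-fold higher in library 1 (22.9% of all genes were 2-fold higher there) and Hspa1a 7.97-fold higher in library 2 (16.3% of all genes). The library 1 value of Hspa1a rests on 44 counts, and Hspa1b did not follow (10.5 and 9.38 CPM in back Merkel libraries 1 and 2). In back IFE cells Fosb and Dusp1 were 3.42-fold and 2.91-fold higher in library 1 (14.7% of all genes), and 0 of the 10 genes were 2-fold higher in library 2 (19.3% of all genes). The shares of the 10 genes higher in library 1 of paw Merkel and back IFE cells (40% and 20%) lie near those of all genes. In library 2 of both groups the share was 0, below that of all genes, which with 10 genes is a small count.

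The broader early response list was counted in the other groups in the same way. In paw Merkel cells 17 of 34 genes (50%, against 31.1% of all genes) were at least 2-fold higher in library 1, and 1 gene was in library 2. Keratinocyte markers were also higher in paw Merkel library 1. Differentiated markers summed to 5252 CPM in library 1 and 412 CPM in library 2, and basal markers to 3451 and 1860.1 CPM. The part of these sums was not tested. In back IFE cells 11 genes (32.4%, against 14.7% of all genes) were higher in library 1, and 2 genes in library 2. In back Merkel cells 8 genes (23.5%) were higher in library 1, a share like the 22.9% of all genes, and 1 gene in library 2. The chaperones did not follow in back IFE cells, where 0 of 26 were 2-fold higher in library 1 and 2 in library 2. In back IFE cells the immune and Langerhans sum moved with these genes (1044 CPM in library 1, 154 CPM in library 2), and its part was not tested. The Hox genes of the 2 back IFE libraries also differed (correlation -0.075). The part of skin site in these differences, and in those of Fosb and Dusp1 above, was not tested.

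Summed over the 8 immediate early genes without Hsp70, the share of all counts was 0.355% and 0.208% in paw Merkel libraries 1 and 2, 0.134% and 0.22% in paw IFE, 0.19% and 0.171% in back Merkel and 0.311% and 0.225% in back IFE libraries. Paw Merkel library 1 and back IFE library 1 stood highest and paw IFE library 1 lowest. Paw IFE library 2, highest by far for Hsp70, lay in the middle of this range.

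**Figure D3:**
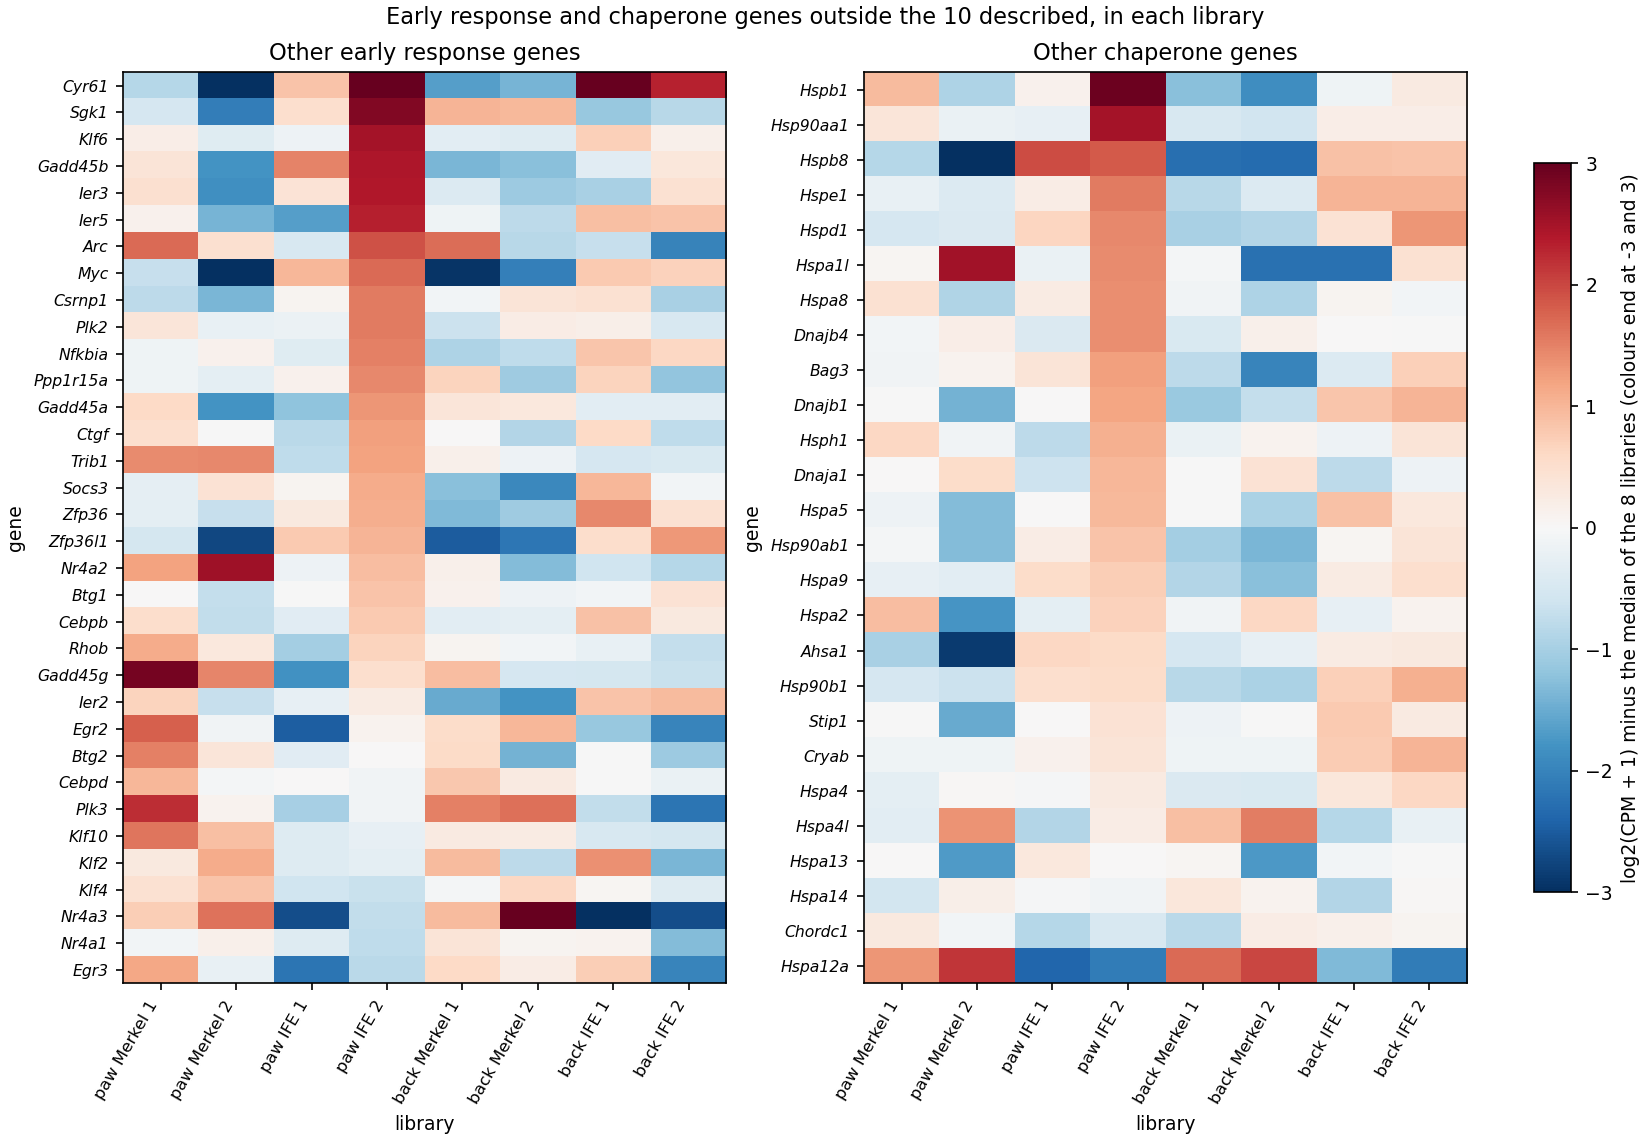
Heat map of 34 other early response genes (left) and 26 other chaperone genes (right), rows sorted by paw IFE library 2, in the 8 libraries; colour gives log2(CPM + 1) minus the median of the 8 libraries, ending at -3 and 3. The column of paw IFE library 2 holds the highest value of 16 early response genes and 13 chaperones.

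The comparison of Merkel with IFE cells asks whether the touch receptors and the epidermis around them differ in these genes. In paw skin Egr1 rose and Hspa1b fell in Merkel relative to IFE cells, 2 of 10 genes (6.21% of all genes tested passed the threshold). Egr1, a zinc finger transcription factor (chromosome 18, 34859823 to 34864984), measured 1115 and 966 CPM in paw Merkel libraries and 395 and 525 CPM in paw IFE libraries, so the groups did not overlap by their labels. The library labelled back IFE 2, whose Hox genes resemble those of the paw IFE libraries, measured 1018 CPM. The log2 fold change of Egr1 in the paw was 1.18 (SE 0.30, edgeR adjusted p = 0.041). The adjusted p rose to 0.35 without paw IFE library 1, to 0.133 without paw IFE library 2, and to 0.0646 and 0.0641 without back Merkel libraries 1 and 2. Hspa1b had a log2 fold change of -4.48 (SE 0.99, edgeR adjusted p = 0.0219). It was -1.38 without paw IFE library 2 (adjusted p = 0.566) and -4.00 without paw Merkel library 2 (adjusted p = 0.102). Without paw IFE library 2, the only 1 of the 10 genes past the threshold in this comparison was Jun, higher in Merkel cells, with 740 and 622 CPM in Merkel libraries against 176 CPM in paw IFE library 1.

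The other paw values did not pass the threshold. Hspa1a had a log2 fold change of -4.93 (SE 1.54, edgeR adjusted p = 0.0874), which was -1.10 without paw IFE library 2. It passed when library 1 of either paw group or either back IFE library was left out (edgeR adjusted p = 0.00141 to 0.0302). Fosb, a Fos family member (chromosome 7, 19302696 to 19310051), measured 499 and 208 CPM in paw Merkel and 161 and 88.7 CPM in paw IFE libraries (log2 fold change 1.5, SE 0.58, edgeR adjusted p = 0.162), and passed without either back IFE library (0.0423 and 0.0474). Jund, a Jun gene expressed also at rest (chromosome 8, 70698949 to 70700616), measured 63.2 and 48.4 CPM in paw Merkel and 24.1 and 22.3 CPM in paw IFE libraries (log2 fold change 1.27, SE 0.47, edgeR adjusted p = 0.151). Of its exonic bases 52.6% overlap the antisense gene Gm11175, so its reads cannot be told apart from those of that gene without strand. Jun and Junb overlap antisense Junos and neighbouring Prdx2 over 7.28% and 7.52% of their exonic bases. Dusp1 (chromosome 17, 26505590 to 26562128) measured 488 and 246 CPM in paw Merkel and 112 and 191 CPM in paw IFE libraries, a log2 fold change of 1.28 (SE 0.51, edgeR adjusted p = 0.179). Fosb, Jund, Egr1 and Dusp1 were without overlap above paw IFE cells (24.8% of all genes were), and Junb, Hspa1a and Hspa1b without overlap below (28.7%). The remaining Fos, Jun, Junb and Atf3 had log2 fold changes of -1.49 to 0.63 in the paw (edgeR adjusted p = 0.251 to 0.863).

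In back skin 0 of the 10 genes passed the threshold in the edgeR test (15.4% of all genes did), with 5 at an unadjusted p below 0.05 (30.5% of all genes) and 4 past the threshold in DESeq2 (Fosb, Atf3, Dusp1 and Hspa1b). Dusp1 measured 126 and 118 CPM in back Merkel and 519 and 178 CPM in back IFE libraries (log2 fold change -1.51, SE 0.51, edgeR adjusted p = 0.0700). Atf3 measured 85.1 and 123 CPM in back Merkel and 292 and 237 CPM in back IFE libraries (log2 fold change -1.35, SE 0.46, edgeR adjusted p = 0.0694). Egr1 measured 592 and 509.7 CPM in back Merkel and 977 and 1018 CPM in back IFE libraries (log2 fold change -0.86, SE 0.30, edgeR adjusted p = 0.0752). All 3 genes were lower in both back Merkel libraries than in both back IFE libraries. Atf3 and Dusp1 passed when any 1 of the 4 paw libraries was left out, and Egr1 when either paw Merkel library was. The paw libraries enter this comparison through the shared estimate of spread, the filter on low counts, the scaling and the adjustment.

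Fosb went the other way, with 428 and 541 CPM in back Merkel and 275 and 80.1 CPM in back IFE libraries (log2 fold change 1.45, SE 0.58, edgeR adjusted p = 0.114). Hspa1b had a log2 fold change of -2.16 (SE 0.91, edgeR adjusted p = 0.133), and passed when paw IFE library 1 was left out (0.00352). With back IFE library 2 (by its label) left out, these log2 fold changes were -2.09 for Dusp1, -1.49 for Atf3, -0.83 for Egr1, 0.82 for Fosb and -1.96 for Hspa1b, and Dusp1 passed (edgeR adjusted p = 0.00848). Without back IFE library 1 that of Dusp1 was -0.54 and that of Fosb 2.59, which then passed (edgeR adjusted p = 0.0084). In back skin 7 of the 10 genes were without overlap lower in Merkel cells (32.8% of all genes) and 2, Fosb and Jund, higher (29.1%). When the library labelled back IFE 2 was left out the same 7 and 2 genes were without overlap, where 40.6% and 37.3% of all genes were. The remaining Fos, Jun, Junb, Jund and Hspa1a had log2 fold changes of -1.63 to 0.14 in the back (edgeR adjusted p = 0.169 to 0.873).

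**Figure D4:**
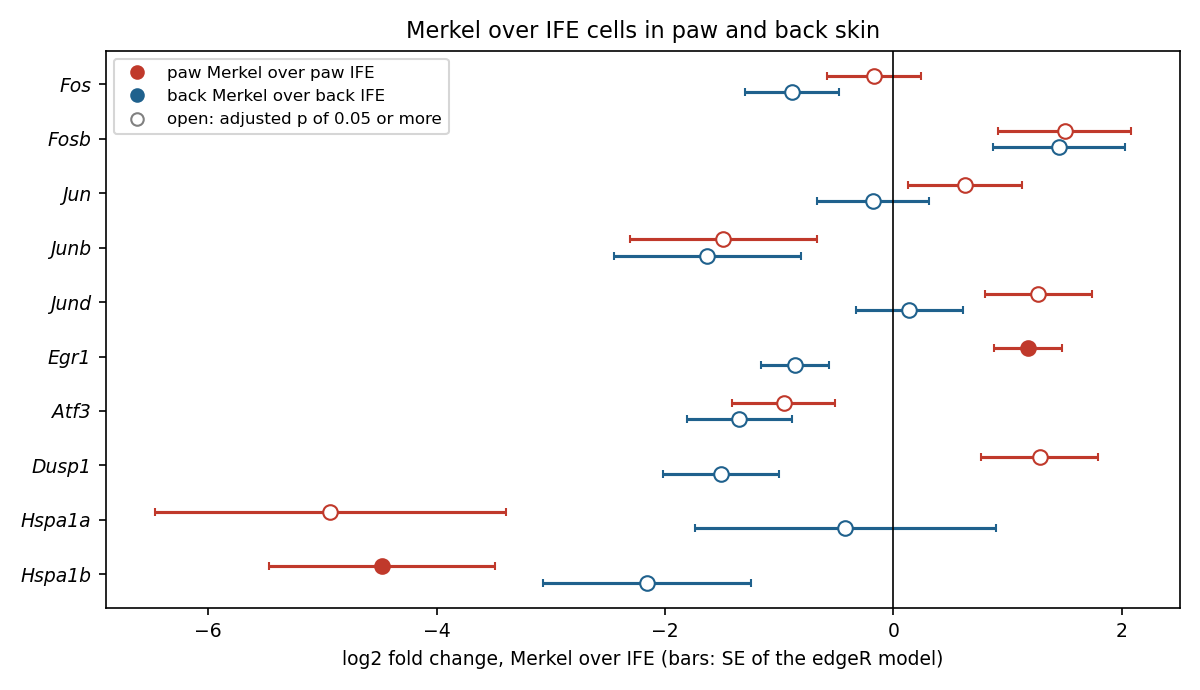
Log2 fold change of Merkel over IFE cells for the 10 genes, paw in red and back in blue, with bars of 1 SE from the edgeR model; filled points passed an adjusted p of 0.05. Egr1 (1.18) and Hspa1b (-4.48) in the paw are the filled points. Egr1, Dusp1 and Jun lie on opposite sides of 0 in paw and back skin, Jun within its SE of 0 in the back (-0.18, SE 0.49).

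Taking the mean of both sites, 3 of 10 genes passed the threshold (23.9% of all genes). Fosb was higher in Merkel cells, 419 ± 148 CPM against 151 ± 90 CPM in IFE cells (SD, n = 4 each), with a log2 fold change of 1.48 (SE 0.41, edgeR adjusted p = 0.0226). Atf3 was lower, with a log2 fold change of -1.16 (SE 0.32, edgeR adjusted p = 0.0233), and Hspa1b was lower, with -3.32 (SE 0.67, edgeR adjusted p = 0.00432). Without paw IFE library 2, Hspa1b still passed (log2 fold change -1.77, edgeR adjusted p = 0.0364), Atf3 did not (-0.71, adjusted p = 0.148), and Jun passed as higher in Merkel cells. Atf3 was also past the threshold no longer without back Merkel library 1 (adjusted p = 0.0788), and Fosb neither without paw Merkel library 1 (0.0542) nor without back Merkel library 2 (0.0568). Without the library labelled back IFE 2, the log2 fold changes were 1.16 for Fosb, -1.23 for Atf3 and -3.22 for Hspa1b, all past the threshold.

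The remaining 7 genes did not pass over both sites. Hspa1a (log2 fold change -2.67, SE 0.98, edgeR adjusted p = 0.072) passed when any of paw Merkel library 1, paw IFE library 1, back Merkel library 2 or the library labelled back IFE 2 was left out, and stood at -0.76 without paw IFE library 2. Junb, a Jun protein of epidermal homeostasis (chromosome 8, 84974484 to 84978718), measured 24.5 and 7.01 CPM in paw Merkel, 34.5 and 53.9 CPM in paw IFE, 16 and 4.49 CPM in back Merkel and 42.1 and 21.4 CPM in back IFE libraries (log2 fold change -1.56, SE 0.58, edgeR adjusted p = 0.0742), and it passed without library 1 of either Merkel group. Paw Merkel library 1 overlapped the IFE libraries, and 3 of 4 Merkel libraries lay below all 4 IFE libraries. Fos, the founding member of the family (chromosome 12, 85473890 to 85477273), measured 166 and 121 CPM in paw Merkel, 192 and 130.2 CPM in paw IFE, 198 and 110.2 CPM in back Merkel and 354 and 218 CPM in back IFE libraries (log2 fold change -0.53, SE 0.29, edgeR adjusted p = 0.209). With back IFE library 2 (by its label) left out the values were -1.76 for Junb and -0.69 for Fos. Jun, Jund, Egr1 and Dusp1 had log2 fold changes of -0.12 to 0.70 over both sites (edgeR adjusted p = 0.149 to 0.848). The highest 2 libraries for Fos were those of back IFE cells, and the rest overlapped. Hspa1b was the only 1 of the 10 genes with all 4 Merkel libraries below all 4 IFE libraries (14% of all genes), and Jund the only one with all 4 above (13.7%). When the library labelled back IFE 2 was left out, Hspa1b and Junb lay below (15.3% of all genes) and Jund above (14.9%).

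The comparison of paw with back skin sets the sites side by side within each cell type. In Merkel cells 0 of 10 genes passed the edgeR threshold (0.185% of all genes, 28, did), with 2 at an unadjusted p below 0.05 (10.2% of all genes). DESeq2 also called 0 of the 10. The 2 genes were Dusp1, with 488 and 246 CPM in paw and 126 and 118 CPM in back Merkel cells (log2 fold change 1.59, SE 0.51, edgeR adjusted p = 0.307), and Egr1, with 1115 and 966 CPM in paw and 592 and 509.7 CPM in back Merkel cells (log2 fold change 0.92, SE 0.30, edgeR adjusted p = 0.308). Jun, Jund, Egr1, Atf3, Dusp1 and Hspa1b were without overlap higher in paw Merkel cells, 6 of 10 where 18.2% of all genes were, and 0 were lower (17.2% of all genes). The 8 genes other than Dusp1 and Egr1 had log2 fold changes of -0.46 to 0.96 (edgeR adjusted p = 0.638 to 0.973).

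In IFE cells 0 of 10 genes passed for paw against back in the edgeR test (0% of all genes did), with 4 at an unadjusted p below 0.05 (4.24% of all genes), and DESeq2 called 1, Hspa1b. The 4 were Hspa1a (log2 fold change 4.21, SE 1.48), Hspa1b (3.29, SE 0.94), Egr1 (-1.12, SE 0.30) and Dusp1 (-1.20, SE 0.51). Without paw IFE library 2 the Hspa1a value was 0.37 and the Hspa1b value 0.19, whereas Hspa1b passed in edgeR when paw IFE library 1 was left out. Without the library labelled back IFE 2 the values were 3.93, 3.49, -1.09 and -1.77 for the 4 genes in that order, and without back IFE library 1 that of Dusp1 was -0.23. The part of the library labelled back IFE 2 in the absence of calls over all genes was not tested. Of the fits with 1 library left out, the fit without that library called the most genes here, over both cell types and in the interaction. That fit leaves 1 library in its group. Hspa1a and Hspa1b were without overlap higher in paw IFE cells (20.2% of all genes) and Fos, Jund and Egr1 lower (20.2%). With back IFE library 2 (by its label) left out, the same 2 genes were higher (39.7% of all genes), and Fos, Fosb, Jund, Egr1 and Dusp1 lower (36.1%). The 6 genes not among the 4 had log2 fold changes of -0.83 to 0.48 between IFE sites. Over both cell types 0 of 10 genes passed the edgeR threshold (0% of all genes), 1 had an unadjusted p below 0.05 (8.2% of all genes), and DESeq2 called 1. That gene was Hspa1b in both, with a log2 fold change of 2.13, or 0.58 without paw IFE library 2 and 2.23 without the library labelled back IFE 2, and it passed in edgeR without paw IFE library 1 (adjusted p = 0.0112). The other 9 genes had log2 fold changes of -0.48 to 1.96 over both cell types (edgeR adjusted p = 0.651 to 0.972).

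The difference between the sites in Merkel against IFE was tested as an interaction. In the edgeR test 0 of 10 genes passed (0% of all genes), with 3 at an unadjusted p below 0.05 (9.01% of all genes). For Egr1 the difference was 2.03 on the log2 scale (SE 0.42, edgeR adjusted p = 0.223), with higher levels in Merkel than in IFE cells of the paw and lower levels in Merkel than in IFE cells of the back. For Dusp1 it was 2.79 (SE 0.72, edgeR adjusted p = 0.302), in the same sense. DESeq2 called both (adjusted p = 0.00769 for Egr1 and 0.035 for Dusp1). When the library labelled back IFE 2 was left out the Egr1 value was 2.01 and the Dusp1 value 3.36, and Dusp1 passed in edgeR (adjusted p = 0.0383). For Hspa1a the difference was -4.52, and -0.68 without paw IFE library 2 and -4.22 without the library labelled back IFE 2. The other 7 genes had differences of -2.32 to 1.13 (edgeR adjusted p = 0.633 to 1).

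The related lists were counted in the same edgeR fits. In the paw 1 of 26 chaperones was higher in Merkel than in IFE cells and 3 were lower (4.28% and 1.93% of all genes), and of 34 other early response genes 2 were higher and 1 lower. Without paw IFE library 2 these counts were 1 and 1 for the chaperones and 0 and 0 for the early response genes. Without paw Merkel library 1 they were 1 and 8 for the chaperones and 1 and 6 for the early response genes, without paw Merkel library 2 they were 1 and 1, and 2 and 0, and without paw IFE library 1 the early response counts were 0 and 6. Without back IFE libraries 1 and 2 the early response counts were 2 and 4, and 2 and 3. Median log2 fold changes in the paw were -0.91 for the chaperones and -0.51 for the early response genes, against -0.04 over all genes. Both list medians include paw IFE library 2, where these lists stood higher than in library 1, and were not computed without it. In the back 1 chaperone was higher and 6 were lower (7.99% and 7.45% of all genes), with 1 and 3 without the library labelled back IFE 2, 1 and 2 without back Merkel library 1 and 1 and 1 without back Merkel library 2. Among early response genes 2 were higher and 5 lower in the back, with 1 and 4 without the library labelled back IFE 2, 1 and 2 without back Merkel library 1 and 0 and 2 without back Merkel library 2. The medians were -0.70 for the chaperones and 0.15 for the early response genes, against -0.06 over all genes. Over both sites 2 chaperones were higher and 8 lower (12.5% and 11.3% of all genes), with a median log2 fold change of -0.92 against -0.09 over all genes. The lower count was 6 to 12 when any 1 library was left out. No gene of these lists passed in the comparisons between sites or in the interaction.

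Hspa12a, a distant member of the Hsp70 family, went against its list. It measured 102 and 183 CPM in paw Merkel, 6.93 and 8.73 CPM in paw IFE, 133 and 166 CPM in back Merkel and 15.6 and 8.7 CPM in back IFE libraries (log2 fold change over both sites 3.90, SE 0.36, edgeR adjusted p = 2.11e-05). Its 4 Merkel libraries all lay above its 4 IFE libraries. Hspd1 and Hsp90b1 were lower in Merkel cells over both sites. Hspd1, the mitochondrial chaperonin, had a log2 fold change of -1.73 (SE 0.28, edgeR adjusted p = 0.00102), and Hsp90b1, the Hsp90 of the endoplasmic reticulum, of -1.45 (SE 0.21, edgeR adjusted p = 0.000558). Without the library labelled back IFE 2 the values over both sites were 3.72 for Hspa12a, -1.47 for Hspd1 and -1.35 for Hsp90b1, all past the threshold. In the paw comparison Hspb8, a small heat shock protein, was lower as well, with 15.2 and 1.57 CPM in Merkel and 113 and 103 CPM in IFE libraries (log2 fold change -3.67, SE 0.84, edgeR adjusted p = 0.0252).

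Of 18 upstream regulators 3 were higher and 1 lower over both sites, 22.2% in all against 23.9% of all genes. The counts were 1 to 2 higher and 1 to 3 lower when any 1 library was left out. Hsf2, a heat shock factor, measured 45.8 and 77.9 CPM in paw Merkel, 17.3 and 12.4 CPM in paw IFE, 70.9 and 94.2 CPM in back Merkel and 26.3 and 9.01 CPM in back IFE libraries (log2 fold change over both sites 2.14, SE 0.43, edgeR adjusted p = 0.00419). Nfkb1, a subunit of NF-kappaB, was lower in Merkel cells (log2 fold change -2.04, SE 0.38, edgeR adjusted p = 0.00267). Mapk8, a Jun kinase, was higher (1.07, SE 0.29, edgeR adjusted p = 0.0224), a call that was lost when any library other than paw Merkel library 1 or back Merkel library 2 was left out (adjusted p = 0.0502 to 0.085). With back IFE library 2 (by its label) left out the values were 1.85 for Hsf2 and -2.03 for Nfkb1, both past the threshold, and 1.10 for Mapk8.

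Among other dual specificity phosphatases, Dusp10, which acts on stress-activated MAP kinases, measured 58.1 and 98.4 CPM in paw Merkel, 5.13 and 11.2 CPM in paw IFE, 76.4 and 104 CPM in back Merkel and 2.12 and 1.14 CPM in back IFE libraries (log2 fold change over both sites 4.53, SE 0.46, edgeR adjusted p = 4.56e-05). Of 11 such phosphatases 2 were higher in Merkel cells and 2 lower (12.5% and 11.3% of all genes), with 1 to 2 higher and 2 lower when any 1 library was left out. The lower ones were Dusp7 (log2 fold change -1.80, SE 0.40, edgeR adjusted p = 0.00766) and Dusp9 (adjusted p = 0.00509). Dusp9 measured 10.4 and 9.5 CPM in paw Merkel, 18.9 and 10.1 CPM in paw IFE, 0 and 0.0977 CPM in back Merkel and 17.1 and 8.66 CPM in back IFE libraries. Its back Merkel libraries thus stood near 0, and no fold is given. Among 7 other AP-1 genes Atf2 was higher (log2 fold change 0.87, SE 0.25, edgeR adjusted p = 0.0276) and Fosl2 lower (-1.31, SE 0.24, edgeR adjusted p = 0.00264). The Atf2 call was lost when any library other than paw Merkel library 1 or the library labelled back IFE 2 was left out (adjusted p = 0.0658 to 0.0991). Ern1, a sensor of the unfolded protein response, was higher (2.90, SE 0.35, edgeR adjusted p = 0.000164), and 3 of the 13 genes of that list were higher, with 0 lower (1 to 3 higher and 0 to 1 lower when any 1 library was left out). The others were Herpud1 (2.99, SE 0.78, edgeR adjusted p = 0.0176), which acts in degradation at the endoplasmic reticulum, and the transcription factor Atf4 (0.85, SE 0.28, edgeR adjusted p = 0.0465). The Herpud1 call was lost without paw IFE library 1 or back Merkel library 1 (adjusted p = 0.0556 and 0.0502), and the Atf4 call when any library other than paw IFE library 2 or back Merkel library 2 was left out (0.0583 to 0.206). When the library labelled back IFE 2 was left out the values were 4.33 for Dusp10, -1.70 for Dusp7, 1.02 for Atf2, -1.40 for Fosl2, 2.87 for Ern1, 2.83 for Herpud1 and 0.84 for Atf4.

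Among early response genes 5 of 34 were higher over both sites and 5 lower, 29.4% in all against 23.9% of all genes (12.5% higher and 11.3% lower). Leaving out 1 library gave 3 to 7 higher and 4 to 8 lower, with 4 and 8 when paw Merkel library 1 was out, 3 and 7 for paw IFE library 1, 7 and 4 for paw IFE library 2, 3 and 4 for back Merkel library 2 and 3 and 6 for the library labelled back IFE 2. Zfp36 and Zfp36l1, which speed the decay of early response mRNAs, were both lower in Merkel cells (-1.74, SE 0.31, and -2.74, SE 0.42, with edgeR adjusted p of 0.00199 and 0.000859). Cyr61 was lower (-5.48, SE 0.97, edgeR adjusted p = 0.00205), with 10.1 and 0.553 CPM in paw Merkel, 35.2 and 545 CPM in paw IFE, 5.4 and 6.64 CPM in back Merkel and 355 and 98.5 CPM in back IFE libraries. Without the library labelled back IFE 2 these values were -1.94 for Zfp36, -2.52 for Zfp36l1 and -5.80 for Cyr61, all past the threshold. In the paw comparison Klf10 and Klf4, transcription factors of the Krüppel-like family, were higher in Merkel cells (1.64, SE 0.38, and 1.31, SE 0.35, with edgeR adjusted p of 0.0289 and 0.0484). Neither passed without either paw IFE library, nor Klf10 without paw Merkel library 1, nor Klf4 without paw Merkel library 2. In the back comparison the orphan nuclear receptor Nr4a3 was higher, with 26.5 and 173 CPM in Merkel and 0 and 1.26 CPM in IFE libraries (edgeR adjusted p = 0.0103, or 0.0686 without back Merkel library 2).

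Compared per length in FPKM, Egr1 and Jun were the most abundant of the 10 genes. Egr1 ranged from 159 FPKM in paw IFE library 1 to 486 FPKM in paw Merkel library 2, and Jun from 84.2 FPKM in paw IFE library 1 to 371 FPKM in paw Merkel library 2. By median rank among all genes of a library the order was Egr1 (67.5), Jun (89.5), Dusp1 (290), Fos (322.5), Fosb (496.5), Atf3 (570.5), Junb (2066.5), Jund (2602.5), Hspa1b (3188.5) and Hspa1a (3830). The ranks of neighbours in this order overlapped between libraries in every case. The widest range was that of Hspa1a, from 38 in paw IFE library 2 to 10009 in paw Merkel library 2.

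The 10 genes did not move as 1 block over the 8 libraries. Pearson correlations of log2 CPM over 8 libraries were 0.869 for Hspa1a with Hspa1b, 0.890 for Atf3 with Hspa1b and 0.792 for Egr1 with Dusp1, against -0.720 for Fosb with Hspa1b and -0.090 for Fos with Fosb. They are given as a description, since the libraries share groups and differ in depth. The gene most like the mean of the 10 over the libraries and above trace levels was Pde4b, a phosphodiesterase that breaks down cyclic AMP (Pearson 0.933 over 8 libraries). It measured 85.9 and 41.6 CPM in paw Merkel, 28.5 and 82.4 CPM in paw IFE, 35.1 and 34.3 CPM in back Merkel and 101 and 34.3 CPM in back IFE libraries. Pde4b was chosen by its correlation with the 10 genes over these same libraries. Its higher level in library 1 of paw Merkel and back IFE cells and library 2 of paw IFE cells is no separate result. Kcnf1, Rufy4, Gpr137c and Eng correlated at 0.960, 0.940, 0.934 and 0.933, at levels of 0 to 6.3 CPM in every library.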

How the data were processed

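The authors deposited counts per gene for each of the 8 libraries and a table of FPKM values, which they had scaled to transcript length and depth. Per the submitters' processing notes, reads were placed on mm10 and TopHat2 2.0.13, Cufflinks 2.2.1, featureCounts (Subread 1.4.6) and DESeq2 1.6.3 were used; annotation and strand setting are not given in the sources used here. Per the labels' protocols, cDNA was amplified from little RNA before libraries were made.

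The deposited counts were tested with the edgeR 4.0.16 quasi-likelihood F test (R 4.3.3): filterByExpr by group left 15151 genes, TMM scaling was used, each of the 4 groups had its own mean in a single fit, and Benjamini-Hochberg adjustment ran over all genes with a threshold of 0.05. Levels are CPM after TMM scaling, and correlations used log2 CPM with a prior count of 2. No adjusted p was computed over the 10 genes alone. Alternatives were DESeq2 1.42.0, RLE scaling, no filter, a replicate block, fits of only the groups compared, limma-trend 3.58.1 on log2(FPKM + 1) and log2(FPKM + 0.1), the sum of Hspa1a and Hspa1b, other folds for differences between libraries, and leaving out each library. Scripts were tested on simulated data.

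All 10 genes were described in every comparison, those at an unadjusted p of 0.05 or more mostly as a range. Of each related list the text names up to 3 genes past the threshold per comparison, by smallest adjusted p, with values for both sites where the gene passed there; genes named outside this rule are marked. The genes and lists were chosen with earlier results of these data known. Gene positions are from GENCODE vM21 (GRCm38), and upstream sequences from RefSeq GRCm38.p6.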

Additional observations from a re-analysis of the deposited data

How the results depend on the processing

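Fold changes were recomputed for those of the 10 genes at an unadjusted edgeR p below 0.05 in a comparison, and for Fos over both sites. Those of related list genes past the threshold and named by rule were also recomputed. None of these 65 fold changes reversed under the alternatives run. The other fold changes of the 10 genes, many of them near 0, were not recomputed, so their direction under the alternatives is not known. Counts of the 10 genes past the threshold moved as follows from 2 in the paw, 0 in the back and 3 over both sites for Merkel against IFE, and 0 between sites and in the interaction. With DESeq2 they were 4 in the paw, 4 in the back, 4 over both sites, 1 for paw against back IFE, 1 over both cell types and 2 in the interaction. Without the filter on low counts they were 5, 4, 1 (paw against back Merkel), 2 (paw against back IFE), 5 (both sites), 2 (both cell types) and 4 (interaction). With only the groups compared they were 0 in the paw and 2 in the back. On log2(FPKM + 1) and log2(FPKM + 0.1) 2 passed in the paw, 1 in the back and 4 over both sites, and on unfiltered FPKM 1, 0 and 2. These were in part other genes: Hspa1b was lost in the paw on every FPKM scale (adjusted p = 0.0911, 0.108 and, unfiltered, 0.23), where Jund passed, and Atf3 was lost over both sites (0.254, 0.266 and 0.397). Unfiltered FPKM also lost Egr1 in the paw (0.096) and Hspa1b over both sites (0.102), and Mapk8 was lost on every FPKM scale (0.0525 and 0.0535). Differences between library 1 and library 2 correlated at -0.043 to 0.084 between groups over 15151 genes. Such values do not tell whether libraries of the same number share an animal or sort. The fit with a replicate block called 2 of the 10 in the back and 4 over both sites. Over all genes it called 1 for paw against back IFE, 1 over both cell types and 4 in the interaction.

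Over all genes, 941 passed in the paw, against 2227 with DESeq2, 1920 without the filter, 537 with only the groups compared and 441 on unfiltered FPKM; 2338 passed in the back, against 3963 with DESeq2. Between Merkel sites 28 passed, against 512 (DESeq2), 452 (no filter), 5 (only the groups compared), 13 and 12 (FPKM). From 0, paw against back IFE gave 84 (DESeq2), 120 (no filter), 2, 1 and 8 (FPKM); both cell types gave 278, 341 and 1 (FPKM); the interaction gave 1 (RLE), 273, 305 and 2 (FPKM).

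Leaving out 1 library at a time gave 1 to 4 of the 10 genes and 561 to 2369 genes in the paw, 0 to 3 and 1307 to 3376 in the back, 3 to 4 and 2587 to 4769 over both sites, 0 to 0 and 1 to 177 between Merkel sites, 0 to 1 and 0 to 67 between IFE sites, 0 to 1 and 0 to 92 over both cell types, and 0 to 1 and 0 to 41 in the interaction. Differences between libraries counted 4 genes at least 2-fold apart in paw Merkel (2 on FPKM, 1 at 4-fold), 4 in paw IFE (7 at 1.5-fold, 2 at 4-fold), 2 in back Merkel (1 at 4-fold) and 2 in back IFE cells (5 at 1.5-fold, 0 at 4-fold). The causes of these changes were not tested. With 2 libraries a group and 4 residual degrees of freedom, a missed threshold does not show that levels were alike, and Hspa1a in paw Merkel library 2 rests on 17 counts.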
